A study of Homo sapiens with 8 samples.

Results

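The miR-10 and miR-196 families are encoded inside the human HOX gene clusters, and 6 of their mature forms were measured here in a renal carcinoma line with and without knockdown of the circular RNA circSOD2. The members were taken by name from the count table and are hsa-miR-10a-5p, hsa-miR-10a-3p, hsa-miR-10b-5p, hsa-miR-10b-3p, hsa-miR-196a-5p and hsa-miR-196b-5p, which are 6 of the 3112 miRNAs listed and of the 1482 that carry a known miRNA name. Small RNA was sequenced from 786O cells, an established line of human clear cell renal cell carcinoma, in a negative control group (NC, n = 4 libraries) and in a group that received a short hairpin RNA against circSOD2 (circSOD2-sh, n = 4 libraries). The labels state that plasmids were transfected in both groups and that RNA was taken after 48 h, whereas the methods of the study describe lentiviral knockdown with puromycin selection. Both groups are the same line, and nothing in the labels says that the 4 libraries of a group came from separate cultures, so the p-values measure the spread between these libraries, which may be technical. The level of circSOD2 itself was not analysed here.

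HOX genes encode the transcription factors that set position along the body axis, and in the adult kidney and its tumors many of them remain active. A miRNA is cut from a hairpin whose 2 sides give a 5p and a 3p arm, and it binds messenger RNAs mainly through its seed, bases 2 to 8 from the 5′ end. Both families lie between or within HOX genes and are known to repress HOX transcripts: miR-10 acts on HOXD10 and other HOX genes, and miR-196 on HOXB8 and its paralogs. In cancer research miR-10b is best known for its link to invasion.

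The hairpins sit in 4 HOX clusters on GRCh38 (GENCODE release 29). MIR10A, at chr17:48579838-48579947 on the minus strand, lies in an intron of HOXB3 and overlaps an exon of a HOXB4 transcript. MIR10B, at chr2:176150303-176150412 on the plus strand, lies in an intron of HOXD3 and ends 810 bases before HOXD4. miR-196a-5p has 2 hairpins, MIR196A1 in an intron of HOXB7 (chr17:48632490-48632559, minus strand) and MIR196A2 in an intron of HOXC6 between HOXC10 and HOXC9 (chr12:53991738-53991847, plus strand), and its reads cannot be assigned to either of them. MIR196B, at chr7:27169480-27169563 on the minus strand, overlaps an exon of a HOXA9 transcript and lies 1028 bases from HOXA10. RefSeq (GRCh38.p14) gave a mature sequence for 5 of the 6 members, all but miR-10b-5p. They are shown because the comparisons below turn on arms, seeds and near-identical copies, and miR-100-5p is added as a relative of miR-10. The seed is in capitals.
miR-10a-5p: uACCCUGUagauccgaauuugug
miR-10a-3p: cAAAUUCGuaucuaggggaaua
miR-10b-3p: aCAGAUUCgauucuaggggaau
miR-196a-5p: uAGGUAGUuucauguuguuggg
miR-196b-5p: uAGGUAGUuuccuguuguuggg
miR-100-5p: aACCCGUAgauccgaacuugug
The miR-196 forms share the seed and differ by 1 of 22 bases, A12C (miR-196a-5p first, counted from the 5′ end), so a read with 1 mismatch could be counted on the wrong one if the authors' counting allowed it. The 3p arms of miR-10a and miR-10b have different seeds and share a run of at most 11 bases. The shared run of miR-10a-5p and miR-100-5p is also 11 bases long, but it starts inside the seed and their seeds differ.

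The NC libraries held 6386872 to 9245044 counts and the circSOD2-sh libraries 3743860 to 4208276, of which known miRNAs were 2344870 to 3573638 and 3604691 to 4059249. Predicted miRNAs made up 58.1% to 63.8% of an NC library and 3.54% to 4.93% of a circSOD2-sh library, so how libraries are scaled sets the sign of small differences. Levels are given as CPM after TMM scaling (normalized CPM), and fold changes, with their standard error (SE), are from edgeR's quasi-likelihood test with Benjamini-Hochberg adjustment over 895 miRNAs. Scaling by library totals moved the median log2 fold change over the 895 from -0.0021 to 0.963, and the calls from 298 higher and 290 lower to 613 higher and 158 lower. A floor of 3 counts stood at 0.460 to 0.674 normalized CPM among NC libraries and at 0.510 to 0.602 among circSOD2-sh libraries, for counting error only, since PCR copies are not separate molecules. Mature miRNAs are of nearly one length, so their levels need no correction for it, but ligation differs between sequences and a ratio of counts is not a ratio of molecules.

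After TMM scaling, both arms of miR-10a and of miR-10b were lower in circSOD2-sh than in NC and miR-196b-5p was slightly higher, but library totals turned both miR-10a arms above 0 and totals of the known miRNAs turned miR-196b-5p below 0. Of the 6 members, 4 were called lower and 1 higher at an adjusted p under 0.05 (edgeR), where 32.4% of all tested miRNAs were called lower and 33.3% higher. Without NC replicate 4, in which miR-10b was raised, 4 members were called lower against a background of 32.0%, and none higher against 33.0%. With library totals 4 members were called higher and none lower, where 68.5% of all tested miRNAs were called higher and 17.7% lower, so the members' share was near that of all miRNAs. For 4 of the 6 members the ranges of the groups were apart, against 60.3% of all tested miRNAs. The median log2 fold change of the members was -0.50 and was 0.46 with library totals. Measured against the median of all tested miRNAs in the same fit, the 2 miR-10a arms, the 2 miR-10b arms and miR-196a-5p lay below it and miR-196b-5p above it in the TMM fit and in every one of the 21 alternatives that gave a value (20 for miR-10b-3p). A change of scaling alone moves a member and this median nearly alike, so the alternatives that differ only in scaling could hardly change these sides. In bulk RNA a change in the share of cells that make a miRNA and a change in its amount per cell cannot be told apart.

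**Figure D1:**
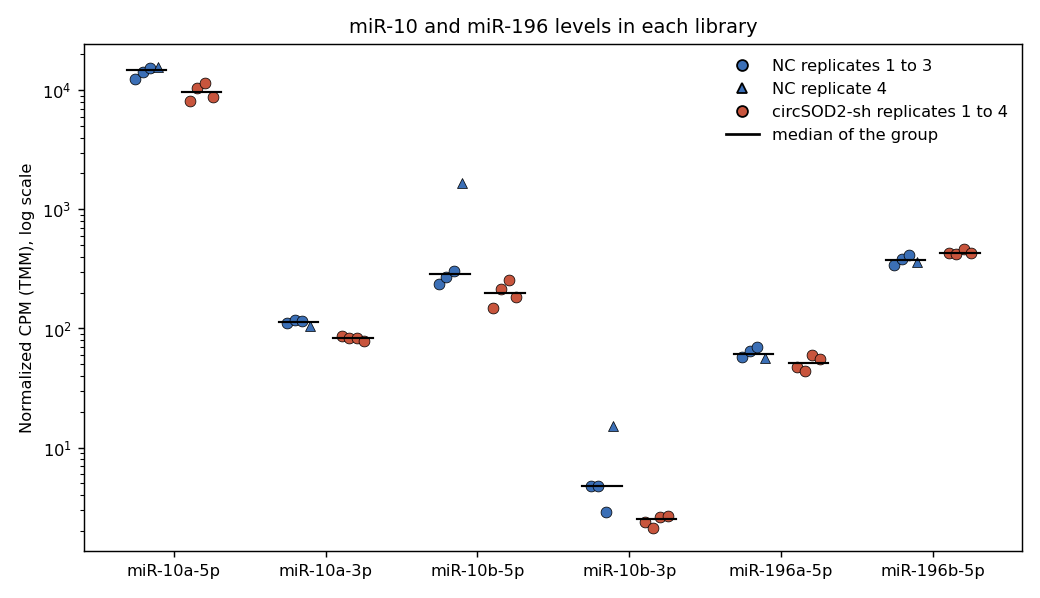
Normalized CPM (log axis) of the 6 members in each of the 8 libraries, with circles for single libraries, a triangle for NC replicate 4 and a line at the median of each group. miR-10a-5p lies between 8089 and 15663, far above the other members, and NC replicate 4 stands apart at 1657 for miR-10b-5p and 15.1 for miR-10b-3p.

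The members differ widely in level. In NC, miR-10a-5p ranked 8 among the known miRNAs by mean normalized CPM, miR-10b-5p 63, miR-196b-5p 77, miR-10a-3p 122, miR-196a-5p 151 and miR-10b-3p 296. In circSOD2-sh the ranks were 14, 108, 80, 149, 168 and 451. miR-10b-5p and miR-196b-5p changed places in this order: without NC replicate 4 the mean of miR-10b-5p in NC was 271 ± 33.8 normalized CPM (SD, n = 3), below the 378 ± 35.4 of miR-196b-5p, so its higher rank in NC rested on that library.

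miR-10a-5p is the main arm of MIR10A and by far the most abundant member. Its counts were 81109, 91903, 90205 and 69688 in NC and 47595, 59713, 57781 and 49464 in circSOD2-sh. These are 12441, 14149, 15382 and 15663 normalized CPM in NC and 8089, 10543, 11595 and 8798 in circSOD2-sh. The lowest NC library was above the highest circSOD2-sh library. The mean was 14409 ± 1467 normalized CPM in NC and 9756 ± 1602 in circSOD2-sh (SD, n = 4 each), which gave a log2 fold change of -0.56 (SE 0.12, edgeR adjusted p = 0.00262). It was the same without NC replicate 4, at -0.56 (edgeR adjusted p = 0.00437), and turned to 0.40 with library totals (edgeR adjusted p = 0.00526).

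miR-10a-3p, the opposite arm of the same hairpin, moved in parallel at a far lower level. It was at 112, 118, 117 and 105 normalized CPM in NC, from 468 to 767 counts, and at 85.8, 83.9, 83.5 and 78.6 in circSOD2-sh, from 416 to 505 counts. The groups did not overlap. The log2 fold change was -0.45 (SE 0.09, edgeR adjusted p = 0.00155), -0.52 without NC replicate 4 and 0.52 with library totals. Dividing 5p by 3p counts needs no scaling, and this ratio was 111, 120, 132 and 149 in NC and 94.2, 126, 139 and 112 in circSOD2-sh. The groups overlapped in this ratio and differed by -0.13 on the log2 scale (SD 0.18 in NC and 0.24 in circSOD2-sh, n = 4 each, exact two-sided permutation test, p = 0.429, adjusted p = 0.857 over 4 ratios).

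miR-10b-5p, the main arm of MIR10B, was set by 1 library in NC. Its counts were 1541, 1762, 1783 and 7372 in NC and 876, 1210, 1271 and 1043 in circSOD2-sh. The normalized CPM were 236, 271, 304 and 1657 in NC and 149, 214, 255 and 186 in circSOD2-sh. NC replicate 4 was 6.12 times the mean of the other NC libraries, and circSOD2-sh replicate 3 lay above NC replicate 1, so the groups overlapped with and without NC replicate 4. With all libraries the log2 fold change was -1.62 (SE 0.61, edgeR adjusted p = 0.0391). Without NC replicate 4 it was -0.47 (SE 0.18, edgeR adjusted p = 0.0429), close to that of miR-10a-5p. The call with all libraries was lost with library totals (-0.64, edgeR adjusted p = 0.299), with known miRNAs only (edgeR adjusted p = 0.0727), with a replicate block (-1.04, edgeR adjusted p = 0.121), and without circSOD2-sh replicate 1 or 4 (edgeR adjusted p = 0.0677 and 0.0571).

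miR-10b-3p, the scarce arm, was raised in the same library. Its counts were 31, 31, 17 and 67 in NC and 14, 12, 13 and 15 in circSOD2-sh, or 4.75, 4.77, 2.90 and 15.1 normalized CPM against 2.38, 2.12, 2.61 and 2.67. Every NC library lay above every circSOD2-sh library, though NC replicate 3, at 2.90, was close to the highest of them. The log2 fold change was -1.44 (SE 0.49, edgeR adjusted p = 0.0260), -0.81 without NC replicate 4 (SE 0.25, edgeR adjusted p = 0.0201) and -0.47 with library totals (edgeR adjusted p = 0.366). NC replicate 4 held 3.64 times the level of the other NC libraries for this arm.

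Within a library, miR-10b-5p stood in a nearly fixed proportion to miR-10a-5p except in NC replicate 4. There were 1.90, 1.92, 1.98 and 10.6 reads of miR-10b-5p per 100 reads of miR-10a-5p in NC and 1.84, 2.03, 2.20 and 2.11 in circSOD2-sh. Whether some counts of miR-10b-5p were reads of miR-10a-5p was not tested. Their sequences could not be compared here, and the mismatches that the authors' counting allowed are not given. Without NC replicate 4 the difference between the groups was 0.079 on the log2 scale (exact two-sided permutation test, p = 0.343, where 3 libraries against 4 allow no p below 0.0571). With it, the difference was -0.53 (exact two-sided permutation test, p = 0.857). The 5p to 3p ratio of miR-10b was 48.9, 56.0, 102 and 109 in NC and 60.4, 96.8, 94.2 and 67.3 in circSOD2-sh, so NC replicate 4 lay at the top of NC and close to NC replicate 3. This ratio rests on 12 to 67 counts of the 3p arm and did not separate the groups (difference 0.07 on the log2 scale, exact two-sided permutation test, p = 0.8).

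NC replicate 4 differed from the other NC libraries in more than miR-10b. Of 289 known miRNAs compared, 15 were over 2 times higher there than in every other NC library, 16 were so in circSOD2-sh replicate 2 among its group, and none in the other 6 libraries. By fold over the other NC libraries miR-10b-5p ranked 9 of these 289 in NC replicate 4, while miR-10a-5p was 1.12 times the mean of the others. Among marker miRNAs of other cell types, all 7 mesenchymal markers, including the defining miR-143-3p and miR-145-5p, were over 2 times higher there than in each other NC library, and their sum was 758 normalized CPM against 14.8 to 17.9. The kidney tubule markers summed to 1066 against 376 to 400 (4 of 6 raised, both defining markers miR-192-5p and miR-194-5p detected in every library). The endothelial summed to 651 against 334 to 348 (1 of 2) and the erythroid to 172 against 26.8 to 42.8 (4 of 5). The leukocyte summed to 17.1 against 1.19 to 2.16 (2 of 5, with the defining miR-223-3p at 0). The muscle markers summed to 47.4 against 9.38 to 15.7 (3 of 4). Of the defining muscle markers, miR-206 was raised, at 24.3, but miR-1-3p was not, at 6.74 against 7.50 to 11.5. Some of the markers counted as raised stood near the floor of 0.674 normalized CPM in NC replicate 4. Among these were miR-214-3p and miR-144-5p (1.12 each), miR-192-3p and miR-204-5p (0.899 each) and miR-142-3p (0.674). The neural, liver and hypoxia markers were not raised there. The mesenchymal sum was also high in circSOD2-sh replicate 2, at 312 against 19.0 to 53.6 normalized CPM in the other circSOD2-sh libraries, and there miR-10b-5p, at 214, lay within the range of its group. The part of these markers' cells in the level of miR-10b was not tested.

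Of the miR-196 forms, miR-196b-5p passed the test with TMM and miR-196a-5p did not, and with library totals both had a positive and with totals of the known miRNAs both a negative log2 fold change. miR-196b-5p was at 341, 381, 412 and 365 normalized CPM in NC (1622 to 2473 counts) and at 429, 424, 467 and 427 in circSOD2-sh (2325 to 2522 counts). The lowest circSOD2-sh library was above the highest NC library, with means of 375 ± 29.6 and 437 ± 20.0 (SD, n = 4 each). The log2 fold change of 0.22 (SE 0.08) had an adjusted p of 0.0420 from edgeR, which was over the threshold in 7 of 8 fits with a single library removed (fold changes of 0.0344 to 0.22). Among them, without NC replicate 4 it was 0.16 (edgeR adjusted p = 0.161). It was 1.19 with library totals and turned to -0.12 when libraries were scaled to the totals of the known miRNAs.

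miR-196a-5p was at 57.8, 65.1, 70.1 and 56.2 normalized CPM in NC (250 to 423 counts) and at 47.8, 44.3, 60.4 and 55.7 in circSOD2-sh (251 to 313 counts). The groups overlapped, and the log2 fold change of -0.26 (SE 0.13) did not pass the test (edgeR adjusted p = 0.113). Without NC replicate 4 it was -0.35 (edgeR adjusted p = 0.0535), and with library totals it was 0.70 (edgeR adjusted p = 0.000995).

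Set against each other inside each library, where scaling drops out, the miR-196 forms gave ratios that did not overlap between the groups but did not pass the adjusted test. The ratio of miR-196b-5p to miR-196a-5p counts was 5.90, 5.84, 5.87 and 6.48 in NC and 8.96, 9.56, 7.71 and 7.66 in circSOD2-sh. Each circSOD2-sh library had a higher ratio than each NC library, by 1.40 times on average. The difference of 0.49 on the log2 scale (SD 0.07 in NC and 0.16 in circSOD2-sh, n = 4 each) had p = 0.0286 in the exact two-sided permutation test, the smallest that 4 libraries against 4 allow, and an adjusted p of 0.114 over the 4 ratios, which did not pass. Without NC replicate 4 it was 0.52, again with the smallest p possible for 3 libraries against 4 (exact permutation test, p = 0.0571). Against miR-10a-5p there were 2.33 to 2.75 reads of miR-196b-5p per 100 in NC and 4.02 to 5.30 in circSOD2-sh, and these ranges, read after the values were known and not tested, did not overlap either.

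**Figure D2:**
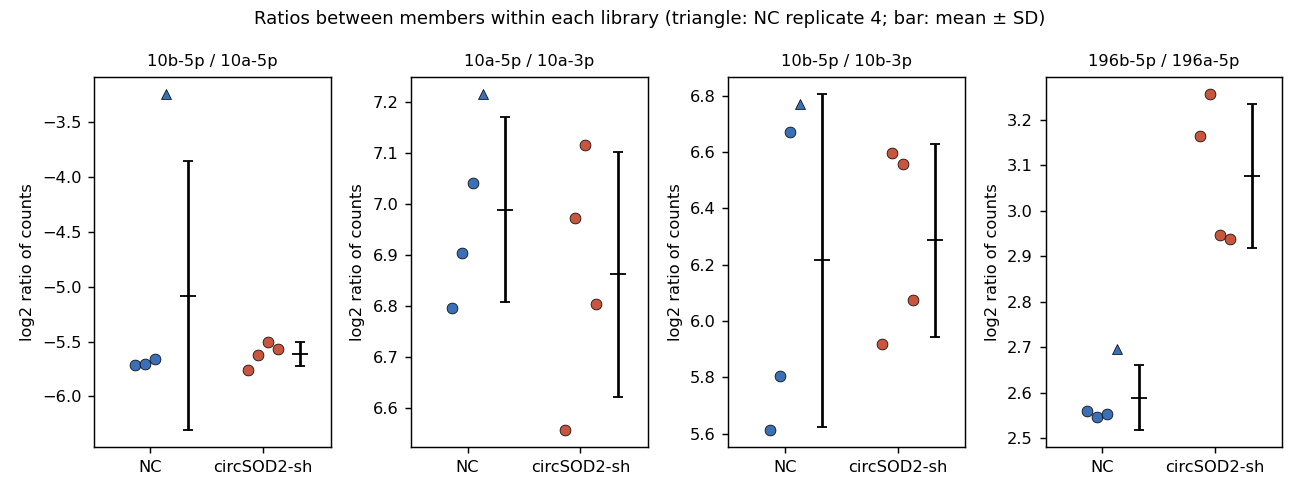
Log2 ratio of counts between pairs of members within each library (0.5 added to each count), one panel per pair with its own axis, circles for single libraries, a triangle for NC replicate 4, and bars for the mean ± SD of each group. The groups separate for miR-196b-5p over miR-196a-5p, and NC replicate 4 stands apart at -3.24 for miR-10b-5p over miR-10a-5p while the other NC libraries lie at -5.72 to -5.66.

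The choice of scaling moved the members together. For miR-10a-5p the log2 fold change was negative with TMM, with the totals of the known miRNAs (-0.91) and with RLE size factors (-0.62), and positive with library totals (0.40) and upper-quartile factors (0.28). For miR-196a-5p it was 0.58 with upper-quartile factors and -0.60 with the totals of the known miRNAs. Only miR-10b-5p and miR-10b-3p were below 0 in each of these fits. All of them included NC replicate 4, and only the TMM fit was also made without it. In the authors' deposited CPM, miR-10b-5p was at 157, 184, 208 and 1084 in NC and at 185, 244, 291 and 226 in circSOD2-sh. For miR-10b-3p these were 3.15, 3.23, 1.98 and 9.85 in NC and 2.95, 2.42, 2.98 and 3.25 in circSOD2-sh. On that scale only NC replicate 4 lay above every circSOD2-sh library for either arm. Relative to the median of all tested miRNAs in the same fit, the log2 fold change ranged over the alternatives from -0.71 to -0.33 for miR-10a-5p, from -0.59 to -0.21 for miR-10a-3p, from -1.94 to -0.44 for miR-10b-5p, from -0.42 to -0.03 for miR-196a-5p and from 0.10 to 0.45 for miR-196b-5p. Scaling alone hardly moves these relative values, so the alternatives that change only the scaling are no separate check on them.

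**Figure D3:**
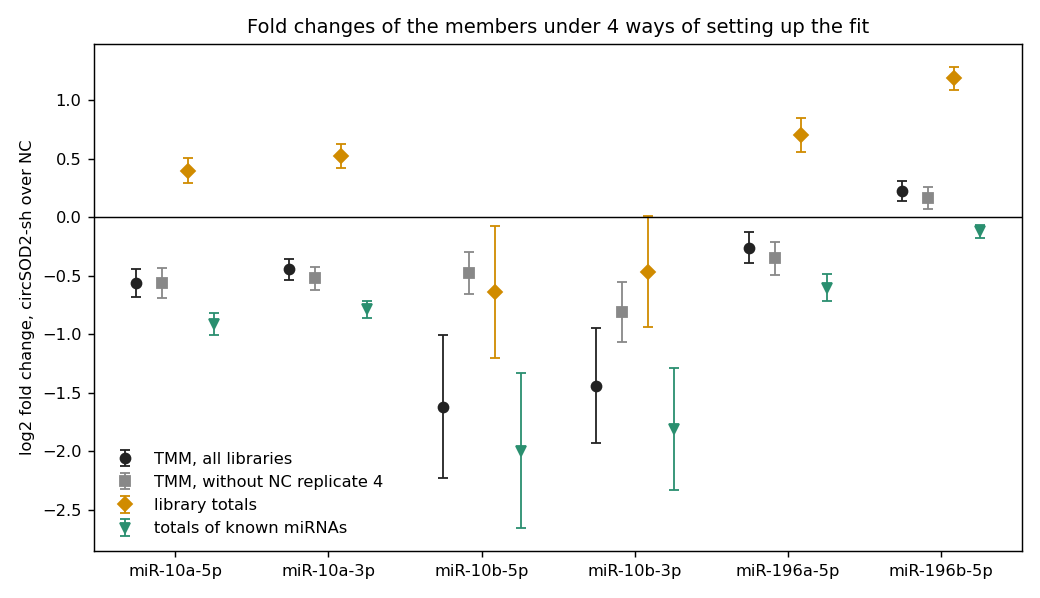
Log2 fold change of circSOD2-sh over NC for each member (points, with bars for the standard error) under TMM with all libraries, TMM without NC replicate 4, library totals and totals of the known miRNAs. With library totals miR-10a-5p, miR-10a-3p and miR-196a-5p turn from below to above 0, with the totals of the known miRNAs miR-196b-5p turns from above to below 0, and without NC replicate 4 miR-10b-5p moves from -1.62 to -0.47.

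Of the other miRNAs of the HOX clusters, 3 of the 5 on the list were in the table and 2 passed the low-count filter. miR-196b-3p, the opposite arm of miR-196b-5p, was called lower, at 5.34 ± 0.921 normalized CPM in NC and 3.01 ± 0.620 in circSOD2-sh (SD, n = 4 each, log2 fold change -0.84, edgeR adjusted p = 0.00557), and was at 0.12 with library totals. Its counts were 36, 33, 38 and 19 in NC and 15, 18, 19 and 14 in circSOD2-sh. The 2 arms of MIR196B thus had fold changes of opposite sign with TMM, and the 5p to 3p ratio was 61.0 to 83.2 in NC and 119 to 166 in circSOD2-sh, ranges that did not overlap and, having been chosen after the values were seen, were not tested. miR-615-3p, from an intron of HOXC5 in the HOXC cluster, had a log2 fold change of 0.47 (edgeR adjusted p = 0.218) and of 0.75 without NC replicate 4 (edgeR adjusted p = 0.0327). miR-196a-3p had 2, 2, 4 and 7 counts in NC and 12, 6, 4 and 5 in circSOD2-sh and was not tested.

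The relatives of miR-10, miR-99, miR-100 and miR-125, share ancestry with it but lie outside the HOX clusters. The longest run shared with miR-10a-5p was 11 bases in miR-100-5p but only 5 in miR-99b-5p and 5 in miR-125a-5p. The 5p arms of these relatives were higher in circSOD2-sh. Of 11 arms tested, 5 were called higher, all of them 5p arms, and 3 lower, all of them 3p arms, against 33.3% and 32.4% of all tested miRNAs, with a median log2 fold change of -0.06. With library totals 9 were called higher and none lower, against 68.5% and 17.7%. miR-100-5p had the most counts of them and was at 18935, 18813, 19097 and 17920 normalized CPM in NC and at 132093, 124301, 138434 and 122705 in circSOD2-sh. The log2 fold change of miR-100-5p was 2.79 (SE 0.06, edgeR adjusted p = 4.50e-10), whereas that of miR-10a-5p, which shares the 11-base run shown above, was -0.56. The values were 1.64 for miR-99a-5p, 0.80 for miR-99b-5p and 2.09 for miR-125a-5p. miR-125b-5p was at 9.85 to 11.2 normalized CPM in NC replicates 1 to 3, at 101 in NC replicate 4 and at 11511 to 13878 in circSOD2-sh (log2 fold change 8.60, and 10.17 without NC replicate 4). All 5 of these stayed above 0 with library totals and with the totals of the known miRNAs. The 3p arms called lower were miR-125a-3p at -1.07, miR-125b-1-3p at -1.11 and miR-125b-2-3p at -0.36. With library totals these were -0.10, -0.15 and 0.61. miR-100-5p alone held 17.3% to 20.6% of the counts of the known miRNAs in circSOD2-sh and 3.34% to 3.69% in NC.

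**Figure D4:**
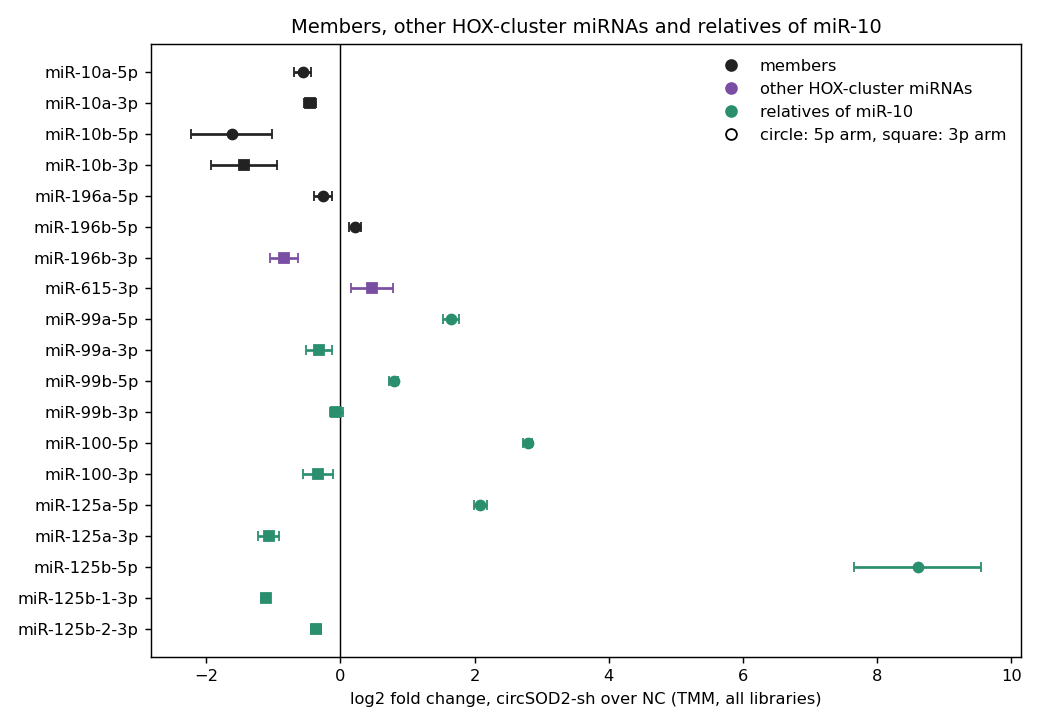
Log2 fold change of circSOD2-sh over NC (TMM, all libraries) with bars for the standard error, for the 6 members, the 2 other HOX-cluster miRNAs tested and the 11 arms of the relatives of miR-10, with circles for 5p and squares for 3p arms. The 5p arms of the relatives lie between 0.80 and 8.60, to the right of all 6 members, whose values run from -1.62 to 0.22. Members and relatives both shift with the scaling. With library totals miR-10a-5p is at 0.40, miR-196b-5p at 1.19 and miR-99b-5p, the lowest of the relatives' 5p arms, at 1.76.

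The miRNAs whose profiles over the 8 libraries were most like those of the members were found among 284 known miRNAs by the root mean square difference of centred log2(normalized CPM + 1). For miR-10a-5p they were miR-24-2-5p (difference 0.11), miR-577 (0.12) and miR-374a-5p (0.13), and for miR-10a-3p they were miR-769-5p (0.06), miR-30e-3p (0.07) and miR-125b-2-3p (0.07). For miR-196a-5p they were miR-148b-3p (0.07), miR-98-5p (0.09) and miR-25-5p (0.10), and for miR-196b-5p they were miR-30d-5p, miR-105-5p and miR-30a-3p (0.06 to 0.07). No profile was as close to miR-10b-5p, whose nearest were miR-200c-3p (0.34), miR-194-5p (0.42) and miR-486-5p (0.42). All 3 were raised in NC replicate 4, which largely follows from how they were chosen, since that library dominates the profile of miR-10b-5p. miR-200c-3p, an epithelial miRNA, was at 8.44, 9.39, 12.1 and 32.6 normalized CPM in NC and at 4.59, 6.53, 7.02 and 3.74 in circSOD2-sh. miR-194-5p, a kidney and gut epithelial miRNA, was at 92.4 normalized CPM in NC replicate 4 and at 20.7 to 30.2 in the other libraries. The erythroid miR-486-5p was at 56.9 there and at 11.4 to 20.0 elsewhere.

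**Figure D5:**
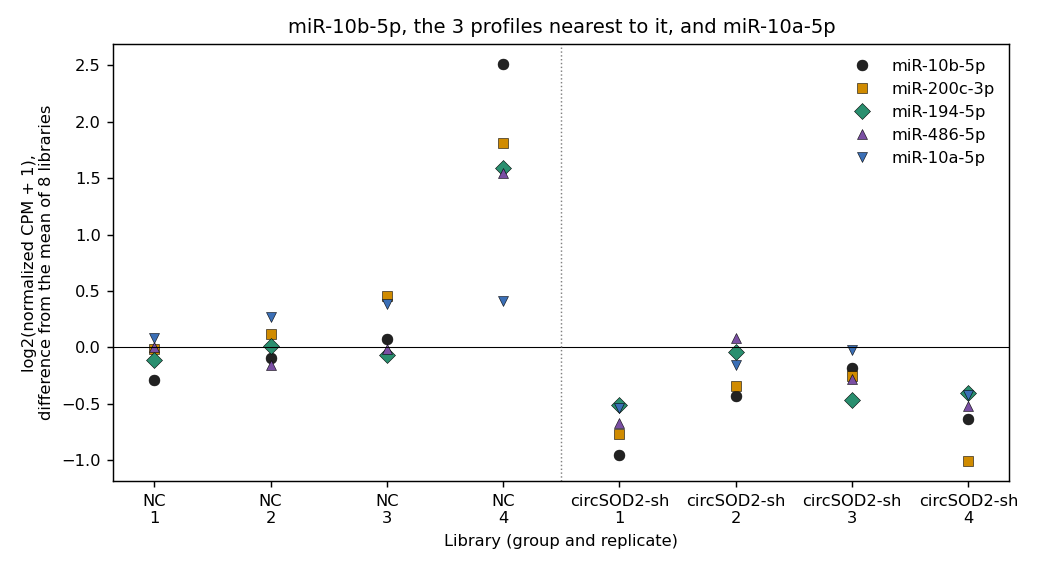
Log2(normalized CPM + 1) of miR-10b-5p, of the 3 miRNAs with the nearest profiles and of miR-10a-5p, each as the difference from its mean over the 8 libraries (one column of points per library). In NC replicate 4 miR-10b-5p and its nearest profiles stand above all other libraries, and miR-10a-5p, at 15663 normalized CPM there against 15382 in NC replicate 3, does not stand apart.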

How the data were processed

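Small RNA of 8 samples of 786O cells (4 NC and 4 circSOD2-sh, grouped by the labels) was sequenced on an Illumina platform. The authors deposited a table of counts per mature miRNA without normalization, a table of CPM scaled by the authors to each library, and a table of their own comparison (mean CPM, log2 ratios, p-values and calls), of which no value was used. The submitters' processing notes name FastQC 0.11.2, Trimmomatic 0.36, Bowtie 1.1.1 and GRCh38, and the counting tool, its mismatches and the miRNA annotation are not given in the sources used here. The deposited counts of 3743860 to 9245044 per library limit the precision of members with few counts.

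The fits were made with edgeR 4.0.16 under R 4.3.3 (filterByExpr with a minimum count of 10, TMM, the quasi-likelihood test, a prior count of 0.125, Benjamini-Hochberg adjustment over 895 miRNAs), and the scripts were tested on simulated data. Standard errors are the log2 fold change divided by the square root of F. Ratios within a library used counts plus 0.5 and an exact two-sided permutation test. Alternatives were DESeq2 1.42.0, other scalings and filters, limma 3.58.1 on the logarithm of the deposited CPM after adding 1 or 0.1, a prior count of 2, a replicate block, and leaving out each library. The scaling to totals of known miRNAs, the counts of miRNAs raised in 1 library, and the ratios of miR-196b-5p to miR-196b-3p and to miR-10a-5p were added after the data were seen. Ratios, tables and figures used scipy 1.17.1, pandas 2.3.3 and matplotlib 3.10.9 under Python 3.11.15.

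The miRNAs named are the members, the listed other HOX-cluster miRNAs and relatives of miR-10, the 3 nearest profiles of each member with a mean of at least 10 normalized CPM, and the markers of other cell types. Members and lists were chosen with earlier results of these data known. No nearest profile is given for miR-10b-3p, whose mean is below that level. No 2 libraries of a group were alike enough to be the same library.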

Additional observations from a re-analysis of the deposited data

Results flagged for a closer look

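A library that stood far from the other 3 of its group was found in 15 of 38 sets of 4 values, where chance would flag about 1.9 of as many independent sets. These sets are not independent, since many values come from the same 2 libraries, and the miR-10b values are a description only, because NC replicate 4 was already known for them when the members were chosen. In NC replicate 4, miR-10b-5p was at 1657 normalized CPM where NC replicates 1 to 3 ranged from 236 to 304, and miR-10b-3p was at 15.1 against 2.90 to 4.77. The log2 ratio of miR-10b-5p to miR-10a-5p was -3.24 in this library against -5.72 to -5.66. The log2 ratio of miR-196b-5p to miR-196a-5p was 2.70 there against 2.55 to 2.56, still below every circSOD2-sh library. In circSOD2-sh replicate 3, miR-196b-5p was at 467 normalized CPM against 424 to 429.

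The summed markers of other cell types set the same library apart in NC. In normalized CPM, NC replicate 4 held 758 of mesenchymal markers against 14.8 to 17.9, 651 of endothelial against 334 to 348, 1066 of kidney tubule against 376 to 400, 172 of erythroid against 26.8 to 42.8, 17.1 of leukocyte against 1.19 to 2.16 and 47.4 of muscle markers against 9.38 to 15.7. Among the circSOD2-sh libraries, replicate 2 held 312 of mesenchymal markers against 19.0 to 53.6, 511 of endothelial against 262 to 290, 14.7 of leukocyte against 2.13 to 3.21 and 5238 of neural markers against 476 to 494. In that library no member of the miR-10 and miR-196 families stood apart. The part of other cells' RNA in the level of any member was not tested.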

How the results depend on the processing

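Scaling turned directions. With library totals the log2 fold change was 0.40 for miR-10a-5p, 0.52 for miR-10a-3p and 0.70 for miR-196a-5p, with upper-quartile factors 0.28, 0.39 and 0.58, with limma on the deposited CPM plus 1 it was 0.25, 0.38 and 0.55, and plus 0.1 it was 0.25, 0.38 and 0.56. All 4 of these fits included NC replicate 4, the library in which miR-10b was raised, and none of them was repeated without it. In them neither arm of miR-10b passed the threshold, with -0.64, -0.68, -0.28 and -0.28 for miR-10b-5p and -0.47, -0.56, -0.33 and -0.37 for miR-10b-3p. For miR-10b-5p this was also so with known miRNAs alone (-1.60) and under a replicate block (-1.04, adjusted p = 0.121 from edgeR), and DESeq2 gave it no adjusted p. For miR-196b-5p the rise did not pass with DESeq2 (0.17), RLE size factors (0.17), no low-count filter (0.19) and both NC replicate 4 and circSOD2-sh replicate 2 left out (0.12), and it turned to -0.12 with totals of known miRNAs. For miR-196a-5p the fall passed with those totals (-0.60) and without those 2 libraries (-0.34). The number of members called was 3 with DESeq2, all lower (33.0% of all tested were called lower), and 3 with limma on either scale or upper-quartile factors, all higher (61.8% to 63.7% of all tested were called higher). It was 4 or 5 in the other alternatives that used all libraries. With library totals all of those called were higher, where 68.5% of all tested were called higher. In the rest they were mostly or all lower. There the share of all tested called lower ran from 9.42% (no low-count filter) to 50.8% (totals of known miRNAs).

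With single libraries left out, the log2 fold change was -1.95 to -0.47 for miR-10b-5p (lowest without NC replicate 1, highest without NC replicate 4, not called without circSOD2-sh replicate 1 or 4), -0.49 to -0.25 for miR-196a-5p (called without circSOD2-sh replicate 3 or 4) and 0.034 to 0.22 for miR-196b-5p (called only without NC replicate 3). The number of members called was 3 to 5, where 60.0% to 68.2% of all tested miRNAs were called. It was 3 without circSOD2-sh replicate 1, where 60.4% of all tested were called. The log2 ratio of miR-10b-5p to miR-10a-5p ran from -0.75 to 0.079, turning without NC replicate 4 (0.082 also without both libraries), and that of miR-10b-5p to miR-10b-3p from -0.13 to 0.26. Both miR-10a arms and miR-10b-3p stayed called lower in all 8 of these fits. miR-10b-3p, with a mean under 50 counts, has no value under that filter. The cause of these shifts was not tested.

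Same-numbered libraries of the groups did not clearly deviate together (correlations of 0.26, -0.10, 0.10 and -0.17), and only NC replicates 1 and 3 correlated best with their own number. The numbers thus gave no clear sign of pairing, though so few libraries cannot settle whether it exists. The block lowered the members called from 5 to 4, where the share of all tested called went from 65.7% to 64.1%. Depth limits miR-10b-3p, with 12 to 67 counts, and miR-196a-3p, with 2 to 12.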
